A study of Mus musculus with 17 samples.

Results

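The 10 genes described here belong to the BCL2 family, whose proteins decide at the mitochondrion whether a cell lives or dies. They were chosen by name as rows of a table of counts for 55536 mouse genes, and all 10 passed the filter on low counts that left 15352 genes for testing. Bcl2, Bcl2l1 (the BCL-XL gene), Mcl1 and the gene copies Bcl2a1a, Bcl2a1b and Bcl2a1d encode pro-survival proteins. Bcl2l11 (the BIM gene) and Bbc3 (the PUMA gene) encode BH3-only proteins that start cell death, and Bax and Bak1 encode the effectors that carry it out. RNA was sequenced in 17 libraries of B cells sorted from mouse spleen, in 6 groups of genotype by stage. The knock-in mice (p52ki) carried an altered allele for p52, the NF-kB subunit made from Nfkb2, and gave 3 libraries of naive, 3 of activated and 2 of germinal centre (GC) B cells. Wild-type (WT) mice gave 3 libraries of each stage. The title of the study joins p52 to ETS1, another transcription factor, in GC formation. No label used here describes the knock-in allele beyond its name, the age of the mice or the sorting gates. No label says whether replicates are separate animals either, and p-values cover only the spread between these libraries. Library numbers run from low in WT to high in p52ki, so a batch that follows them and the genotype cannot be told apart.

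Pro-survival BCL2 proteins hold BAX and BAK in check and capture BH3-only proteins, and a cell dies when free BH3-only protein lets BAX and BAK open the outer mitochondrial membrane. Naive B cells depend on BCL2, whereas GC B cells, which are selected for survival by T cell help, are known to switch BCL2 off and to need MCL1. BCL2A1 is a well-known target of NF-kB in activated lymphocytes, and BIM is a main limiter of B cell numbers.

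Totals assigned to genes ranged from 4067281 to 10036347 counts per library. A gene with at least 1 count was seen for 11390 and 13044 genes in p52ki GC replicates 2 and 5 and for 18449, 11232 and 19135 genes in WT GC replicates 1, 3 and 4, against 16745 to 19672 in the other 12 libraries. WT GC replicate 3 and both p52ki GC libraries thus stood apart. Rank correlation between p52ki GC libraries was 0.766, and WT GC replicate 3 reached 0.792 and 0.814 with the other WT GC libraries, which reached 0.975 with each other. The B cell genes Cd79a, Cd79b, Ms4a1, Pax5 and Cd22 were present in all libraries, with sums of 8520 to 19100 CPM (counts scaled to a common library total). GC markers summed to 1100 to 2030 CPM in p52ki GC cells and 2090 to 3030 CPM in WT GC cells, against 64.2 to 287 CPM in naive and activated cells. T cell markers, whose cells also express Bcl2, summed to 69 to 70.2 CPM in p52ki GC cells, with 4 of 8 (Cd3g, Cd4, Cd8a and Trac) at 0, and to 48.7 to 128 CPM in WT GC cells. Of these, Lck had 31 and 66.3 CPM in p52ki GC replicates 2 and 5, against 39.1 to 122 CPM in WT GC cells. Cd3e had 26.6 and 0 CPM in p52ki GC cells, against 0 to 0.761 CPM in WT GC cells, and Cd3d had 11.4 and 0.82 CPM in p52ki GC cells, against 0 to 0.385 CPM in WT GC cells, so that p52ki GC replicate 2 stood highest for both. Their part in the results was not tested. The myeloid markers (macrophage, monocyte and dendritic cell genes) had a sum of 268 to 295 CPM in p52ki GC cells, with 6 of 8 at 0 (Lyz2, Csf1r, Itgam, Cd14, Fcgr1 and Itgax), and of 145 to 193 CPM in WT GC cells. Cst3 made up most of these sums, at 263 to 295 CPM in p52ki GC and 120 to 183 CPM in WT GC cells. Its means in naive and activated cells were 165 to 217 CPM.

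Because the series concerns p52 and ETS1, the stretch before the transcription start is shown for Bcl2, Mcl1 and the Bcl2a1 copies. Against activated cells, Bcl2 was called lower at the GC stage in WT only, and Mcl1 in both genotypes. The sequences are RefSeq promoters on GRCm38.p6, 5′ to 3′ along the gene, cut to 180 bases that lie before the start in both RefSeq and GENCODE. Capitals mark GGAA, the core to which ETS factors bind, on either strand, so that TTCC is the core on the other strand.
Bcl2, chr1:106714291-106714470, - strand: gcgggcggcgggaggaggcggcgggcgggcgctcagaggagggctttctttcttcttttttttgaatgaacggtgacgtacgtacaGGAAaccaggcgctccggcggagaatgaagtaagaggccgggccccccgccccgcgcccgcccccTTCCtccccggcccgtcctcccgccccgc
Mcl1, chr3:95658541-95658720, + strand: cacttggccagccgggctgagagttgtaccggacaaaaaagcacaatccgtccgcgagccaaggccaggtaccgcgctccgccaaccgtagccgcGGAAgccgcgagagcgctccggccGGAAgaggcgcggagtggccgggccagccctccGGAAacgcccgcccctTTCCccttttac
Bcl2a1a, chr9:88956720-88956899, + strand: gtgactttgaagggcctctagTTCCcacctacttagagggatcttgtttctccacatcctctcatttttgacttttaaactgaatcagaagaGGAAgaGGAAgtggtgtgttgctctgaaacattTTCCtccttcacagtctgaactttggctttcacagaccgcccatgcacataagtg
Bcl2a1b, chr9:89199029-89199208, + strand: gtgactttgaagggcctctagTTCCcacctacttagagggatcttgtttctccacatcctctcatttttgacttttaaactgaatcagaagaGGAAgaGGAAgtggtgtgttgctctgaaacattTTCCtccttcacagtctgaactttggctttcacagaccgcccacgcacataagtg
Bcl2a1d, chr9:88731915-88732094, - strand: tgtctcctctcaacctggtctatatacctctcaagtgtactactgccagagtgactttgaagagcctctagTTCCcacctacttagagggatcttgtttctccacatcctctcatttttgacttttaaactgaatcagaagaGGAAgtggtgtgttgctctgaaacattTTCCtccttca

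Bcl2 held 2 such cores and Mcl1 held 4. In Mcl1, 2 of them lay in the longer form CCGGAA, which overlaps GGAA and was in none of the other 4 stretches. Bcl2a1a and Bcl2a1b held 4 cores each and Bcl2a1d held 3. The 250-base RefSeq windows before the start were also searched over all genes: GGAA on either strand was in 93.4% of 32851 windows, CCGGAA in 12% and the kB consensus, the motif of NF-kB dimers, in 7.25%. Among the members' windows, CCGGAA was in those of Mcl1 and Bcl2l11. The kB consensus was in 1 of 3 windows of Bcl2l1 and 1 of 3 of Bbc3, where it overlapped 1 GGAA. These matches describe letters in a window and say nothing about binding.

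The Bcl2a1 copies are near-identical genes on chromosome 9, and their first 90 coding bases are shown because the counts depend on telling them apart. The coding sequence is 519 bases in each copy (GENCODE M21), and capitals mark the positions at which the copies differ, 6 in this stretch and 12 in all.
Bcl2a1a: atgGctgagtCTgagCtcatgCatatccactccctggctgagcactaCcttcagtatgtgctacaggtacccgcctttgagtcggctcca
Bcl2a1b: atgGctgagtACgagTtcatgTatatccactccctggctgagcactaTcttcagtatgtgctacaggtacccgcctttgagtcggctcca
Bcl2a1d: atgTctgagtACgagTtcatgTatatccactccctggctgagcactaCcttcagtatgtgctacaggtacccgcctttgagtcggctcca

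Coding identity was 97.9% between Bcl2a1a and Bcl2a1b, 98.7% between Bcl2a1a and Bcl2a1d and 98.8% between Bcl2a1b and Bcl2a1d. The printed promoters of Bcl2a1a and Bcl2a1b were identical at 179 of 180 bases, and Bcl2a1d matched each of them at 129 of 136 aligned bases. At the length of the sequenced reads, 28% of positions in Bcl2a1a, 41.7% in Bcl2a1b and 29.9% in Bcl2a1d could not be placed in a single gene, and exons of Gm29094 on the same strand cover 49.1% of Bcl2a1b exon bases. How reads with several matches were counted is not stated in the labels used here. The level of a single copy is therefore uncertain, and the sum of the copies is given beside it.

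The genes lie on 6 chromosomes of GRCm38. Bcl2 (ENSMUSG00000057329) spans 106538178 to 106714274 on the minus strand of chromosome 1, Mcl1 (ENSMUSG00000038612) spans 95658788 to 95663176 on the plus strand of chromosome 3, and Bax (ENSMUSG00000003873) spans 45461697 to 45466898 on the minus strand of chromosome 7. Bcl2a1d (88723285 to 88731914, minus strand), Bcl2a1a (88956900 to 88962419, plus strand) and Bcl2a1b (89199209 to 89207827, plus strand) lie in this order along chromosome 9. Other genes overlap 6.09% of Bcl2 exon bases, 12.2% of those of Bax and 25.5% of those of Bak1, and reads from the overlap may come from either gene.

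No member was called between p52ki and WT in naive or activated B cells, where 0% and 0.013% of all genes were called by edgeR, and all calls involved the GC stage. In GC cells Bcl2 was higher in p52ki than in WT, and Bax was lower. Per unit of transcript length, the summed Bcl2a1 copies exceeded Mcl1 in both p52ki GC libraries and in WT GC replicate 3. These were the libraries with the fewest detected genes, and the summed copies were not called between genotypes. Levels below are CPM after TMM scaling, in the order of the replicate numbers. Differences are log2 with their standard error (SE), from edgeR's quasi-likelihood test over all 17 libraries, and a gene was called at a Benjamini-Hochberg adjusted p under 0.05 over all genes tested.

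**Figure D1:**
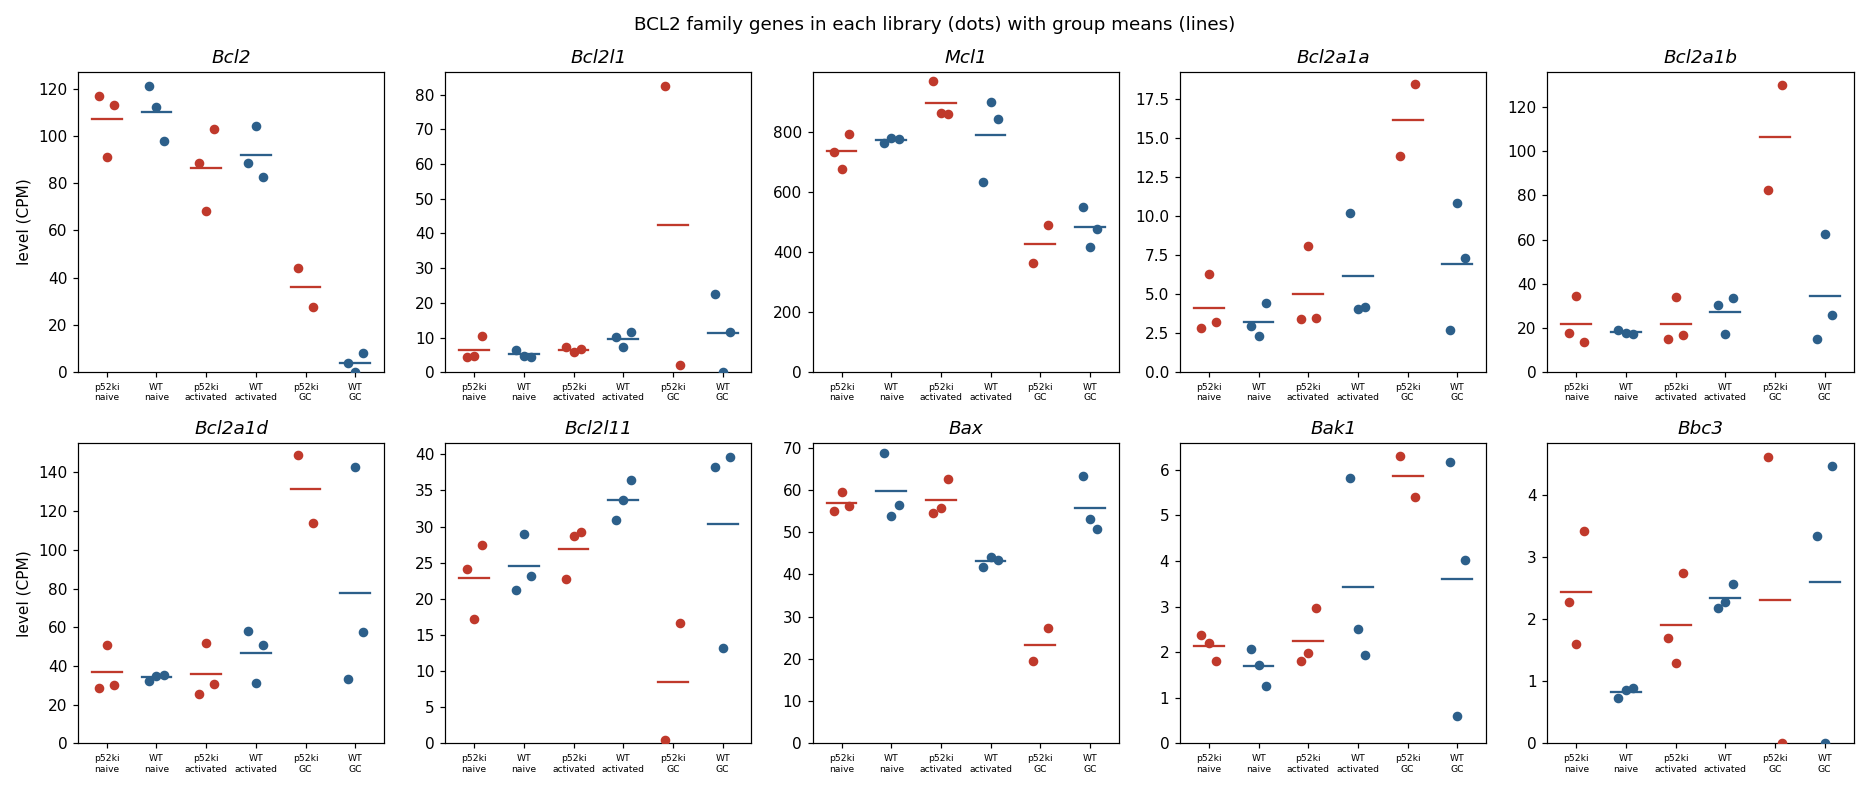
Level of each of the 10 genes (y axis, CPM, with its own scale per panel) in each library (dots) by group, with p52ki in red, WT in blue and lines at the group means. Bcl2 lies at 27.6 and 44.1 CPM in p52ki GC libraries, above the WT GC libraries at 0 to 7.93 CPM and below every naive and activated library.

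Bcl2, the founding pro-survival gene, followed the stages. It had 117, 90.9 and 113 CPM in p52ki naive cells and 121, 112 and 97.7 CPM in WT naive cells. It had 88.3, 68.2 and 103 CPM in p52ki activated cells and 88.7, 104 and 82.6 CPM in WT activated cells. It had 44.1 and 27.6 CPM in p52ki GC cells, against 4.1, 0 and 7.93 CPM in WT GC cells. The genotypes overlapped in naive and activated cells and did not overlap in GC cells, where each p52ki library was above each WT library. The 0 in WT GC replicate 3 allows a level of up to 0.611 CPM at the 3 counts taken as the floor, which covers counting error only.

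Between genotypes, Bcl2 was 3.09 log2 higher in p52ki GC than in WT GC cells (SE 0.69, 95% interval 1.62 to 4.56, adjusted p = 0.00985). In bulk RNA, fewer cells of a type and less RNA per cell cannot be told apart. The difference kept its direction and its call without each GC library in turn, and the lowest value was 2.68 log2 without WT GC replicate 3 (adjusted p = 6.71e-05). It was not called when GC libraries alone set the spread (3.29 log2, adjusted p = 0.631) or with limma voom and quality weights (2.44 log2, adjusted p = 0.208). Markers of naive follicular B cells moved the same way. Their sum (Fcer2a, Ighd, Ccr7, Klf2 and S1pr1) was 1200 to 1380 CPM in p52ki GC cells and 443 to 600 CPM in WT GC cells, against 6360 to 7500 CPM in naive cells; 4 of the 5 were called higher and none was at 0. Their part in the Bcl2 difference was not tested.

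**Figure D2:**
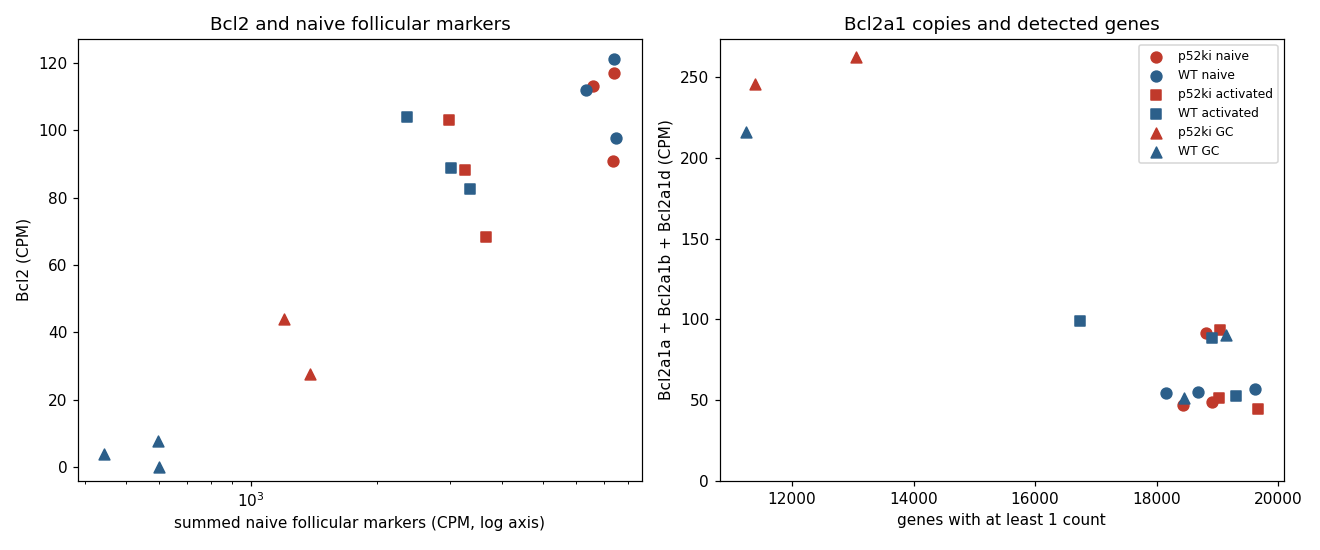
Left, Bcl2 (CPM) against the summed naive follicular markers (CPM, log axis) per library; right, the summed Bcl2a1 copies (CPM) against the number of detected genes. Red is p52ki and blue WT, with circles for naive, squares for activated and triangles for GC cells; p52ki GC libraries lie between WT GC and activated libraries on the left, and the 3 libraries with the fewest genes have the 3 highest Bcl2a1 sums on the right.

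Bcl2 fell at the GC stage in WT, with a difference of -4.45 log2 between WT GC and WT activated cells (SE 0.688, adjusted p = 0.00058). All 3 WT GC libraries were below all 3 WT activated libraries, and the call was lost when those 6 libraries alone set the spread (-4.49 log2, adjusted p = 0.0677). In p52ki the difference between GC and activated cells was -1.27 log2 (SE 0.687, adjusted p = 0.183), not called, although both p52ki GC libraries were also below the 3 p52ki activated libraries. The difference between these stage changes, p52ki minus WT, was 3.18 log2 (SE 0.901) with an adjusted p = 0.0504, just above the threshold. Alternatives fell on both sides of the threshold. It passed with RLE size factors (adjusted p = 0.0405), with DESeq2 (adjusted p = 0.00168), with immunoglobulin genes removed (adjusted p = 0.0393) and without WT GC replicate 3 (0.000421), WT GC replicate 4 (0.0215) or p52ki GC replicate 5 (0.0173). It did not pass with limma voom (adjusted p = 0.229), with only the groups compared (0.225), with no filter (0.0946) or in the other 8 fits without 1 library (0.0788 to 0.0945). All comparisons of GC with activated cells share their GC libraries with the genotype comparison.

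Mcl1, a short-lived pro-survival protein, had the highest level of the family in CPM. It had 733, 676 and 792 CPM in p52ki naive cells and 763, 780 and 776 CPM in WT naive cells. It had 968, 862 and 857 CPM in p52ki activated cells and 631, 898 and 841 CPM in WT activated cells. GC cells had 364 and 490 CPM in p52ki and 550, 416 and 477 CPM in WT. Every GC library was below every naive and activated library, while the genotypes overlapped at the GC stage. Mcl1 fell in GC against activated cells, by 1.07 log2 in p52ki (SE 0.205, adjusted p = 0.0026) and by 0.72 log2 in WT (SE 0.178, adjusted p = 0.0143). The WT call was lost without WT activated replicate 3 (adjusted p = 0.0561) or 4 (adjusted p = 0.0579) and with only the groups compared (adjusted p = 0.163), and the p52ki call with limma voom (adjusted p = 0.108). Between genotypes the difference in GC cells was -0.17 log2, with a 95% interval of -0.59 to 0.25 (adjusted p = 0.584).

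The Bcl2a1 copies, which encode the pro-survival protein A1, were highest in p52ki GC cells. Their summed level was 49.1, 91.8 and 47.1 CPM in p52ki naive cells and 54.4, 54.9 and 56.8 CPM in WT naive cells. The sum was 44.4, 93.7 and 51.1 CPM in p52ki activated cells and 99.1, 52.5 and 88.8 CPM in WT activated cells. It was 246 and 263 CPM in p52ki GC cells, against 51.3, 216 and 90.5 CPM in WT GC cells. Both p52ki GC libraries were above all others, and WT GC replicate 3 was close below them, far from the other WT GC libraries.

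Against p52ki activated cells, Bcl2a1b rose by 2.27 log2 in p52ki GC cells (SE 0.57, adjusted p = 0.0107) and Bcl2a1d by 1.87 log2 (SE 0.498, adjusted p = 0.0147), while Bcl2a1a differed by 1.69 log2 (SE 0.677, adjusted p = 0.0782). The Bcl2a1d call was lost without p52ki GC replicate 2 (adjusted p = 0.0543) or p52ki activated replicate 2 (adjusted p = 0.059) and with limma voom (adjusted p = 0.0829). The summed copies, fitted as 1 gene, rose by 2.01 log2 (SE 0.493, adjusted p = 0.00968). In WT the sum differed by 0.57 log2 between GC and activated cells (SE 0.446, adjusted p = 0.459). Between p52ki GC and WT GC cells the sum differed by 1.09 log2 (SE 0.49, adjusted p = 0.134), and no copy was called; Bcl2a1b was closest at 1.62 log2 (SE 0.565, adjusted p = 0.0623). Bcl2a1b did pass with DESeq2 (1.64 log2, adjusted p = 0.028) and with no filter on low counts (1.62 log2, adjusted p = 0.0429). Without WT GC replicate 3, Bcl2a1b was 2.49 log2 higher in p52ki GC cells (adjusted p = 0.00403) and Bcl2a1d 1.66 log2 higher (adjusted p = 0.0114). The 3 GC libraries with the highest Bcl2a1 sums were those with the fewest detected genes, and the part of this in the result was not tested.

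The copies differed in level. Bcl2a1d was above Bcl2a1b in 16 of 17 libraries in CPM and Bcl2a1a was lowest in all 17. In p52ki GC cells Bcl2a1d had 149 and 114 CPM, Bcl2a1b 82.4 and 130 CPM and Bcl2a1a 13.8 and 18.4 CPM. In WT GC cells Bcl2a1d had 33.5, 143 and 57.4 CPM, Bcl2a1b 15.1, 62.7 and 25.9 CPM and Bcl2a1a 2.69, 10.8 and 7.28 CPM. For each copy, both p52ki GC libraries and WT GC replicate 3 were above all other libraries. For Bcl2a1a, WT GC replicate 3 was so only narrowly, at 10.8 CPM against up to 10.2 CPM in WT activated cells. Because the copies share stretches of read length, their levels are not independent readings.

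Bcl2l1, whose product BCL-XL is pro-survival, was low and uneven. It had 4.42, 4.55 and 10.4 CPM in p52ki naive cells and 6.37, 4.79 and 4.3 CPM in WT naive cells, with 7.19, 5.75 and 6.55 CPM in p52ki activated and 10.2, 7.28 and 11.6 CPM in WT activated cells. It had 82.4 and 2.13 CPM in p52ki GC cells, from 340 and 13 counts, against 22.6, 0 and 11.5 CPM in WT GC cells. The p52ki GC libraries thus lay on either side of all WT GC libraries with a count, and no contrast was called; the GC difference between genotypes was 1.88 log2 with a 95% interval of -0.72 to 4.48 (adjusted p = 0.302).

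Bcl2l11 encodes BIM, which binds all the pro-survival proteins. It had 24.1, 17.2 and 27.4 CPM in p52ki naive and 21.3, 29 and 23.2 CPM in WT naive cells, and 22.7, 28.7 and 29.2 CPM in p52ki activated and 30.9, 33.7 and 36.5 CPM in WT activated cells. It had 0.484 and 16.6 CPM in p52ki GC cells, from 2 and 101 counts, against 38.3, 13.2 and 39.6 CPM in WT GC cells. All 3 WT activated libraries were above the p52ki activated libraries, by little, and the GC groups overlapped. The GC difference between genotypes was -1.81 log2 (SE 0.819, adjusted p = 0.138) and rested on p52ki GC replicate 2, since it was -0.89 log2 without that library (adjusted p = 0.277) and -5.94 log2 when p52ki GC replicate 5 was left out. The last value sets 1 p52ki GC library with 2 counts against WT.

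Bbc3 encodes PUMA, a BH3-only protein induced by p53, and was near the floor, at 0 to 4.6 CPM in all libraries. It had 2.27, 1.6 and 3.42 CPM in p52ki naive cells against 0.734, 0.86 and 0.886 CPM in WT naive cells, groups that did not overlap. The difference of 1.54 log2 was not called (SE 1.11, adjusted p = 1). In GC cells it had 4.6 and 0 CPM in p52ki and 3.33, 0 and 4.46 CPM in WT.

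Bax, an effector that opens the mitochondrial membrane, had 55.1, 59.5 and 56.2 CPM in p52ki naive and 68.6, 53.9 and 56.5 CPM in WT naive cells. It had 54.5, 55.7 and 62.5 CPM in p52ki activated and 41.8, 44.2 and 43.5 CPM in WT activated cells. It had 19.6 and 27.2 CPM in p52ki GC cells, against 63.2, 53.1 and 50.7 CPM in WT GC cells. The p52ki libraries were all above WT in activated cells and all below WT in GC cells, including WT GC replicate 3.

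In GC cells Bax was lower in p52ki by 1.25 log2 (-1.25, SE 0.268, 95% interval -1.82 to -0.68, adjusted p = 0.0077). Against p52ki activated cells it fell by 1.29 log2 in p52ki GC cells (SE 0.268, adjusted p = 0.00404), whereas it differed by 0.37 log2 between WT GC and WT activated cells (SE 0.229, adjusted p = 0.335). The stage changes differed between genotypes by -1.66 log2, p52ki minus WT (SE 0.35, adjusted p = 0.013). Both this difference and the fall in p52ki were lost with all genes kept (adjusted p = 0.127 and 0.0531), with limma voom (0.297 and 0.304) and with only the groups compared (0.173 and 0.0651). In activated cells the difference between genotypes was 0.41 log2 (SE 0.228, adjusted p = 1). The GC difference between genotypes was called without each GC library in turn, at -1.52 to -1.04 log2, but not with all genes kept (adjusted p = 0.0928), with limma voom (adjusted p = 0.407) or with GC libraries alone (adjusted p = 0.631).

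Bak1, the other effector, was low throughout. It had 2.38, 2.21 and 1.81 CPM in p52ki naive, 2.08, 1.72 and 1.27 CPM in WT naive, 1.8, 1.99 and 2.98 CPM in p52ki activated and 5.82, 2.5 and 1.95 CPM in WT activated cells. GC cells had 6.3 and 5.41 CPM in p52ki and 6.16, 0.611 and 4.02 CPM in WT. The GC groups overlapped, and the difference between genotypes of 0.68 log2 was not called (SE 0.73, adjusted p = 0.549).

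**Figure D3:**
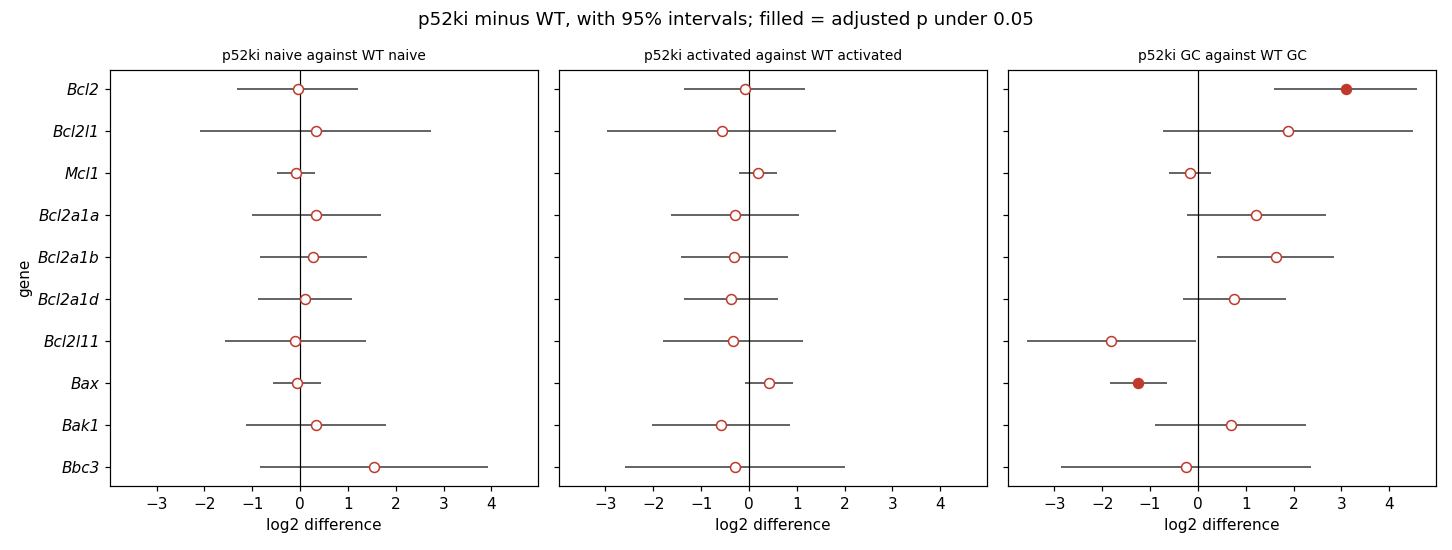
Log2 difference of p52ki against WT for each gene (rows) with its 95% interval, in naive, activated and GC cells (panels), where filled points have an adjusted p under 0.05. Points in naive and activated cells are all open, and in GC cells Bcl2 at 3.09 and Bax at -1.25 are filled.

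Counted over the family, 0 of 10 genes were called between p52ki naive and WT naive cells, where 0% of all genes tested were called by edgeR, and 0 of 10 had an unadjusted p under 0.05. Likewise 0 of 10 were called between p52ki activated and WT activated cells, against 0.013% of all genes, with 0 of 10 at an unadjusted p under 0.05. DESeq2 and limma voom called 0 members in both. The intervals were wide for most genes but narrow for Mcl1, at -0.45 to 0.30 log2 in naive and -0.20 to 0.56 log2 in activated cells. In GC cells 2 of 10 were called, 1 higher and 1 lower, against 16% of all genes, made up of 3.75% higher and 12.2% lower. The members' median difference there was 0.72 log2, beside -0.32 log2 over all genes. The share called was near that of all genes.

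Between WT GC and WT activated cells 2 of 10 were called, both lower, against 13.6% of all genes (5.8% higher and 7.75% lower), with a median of 0.18 log2 over the members and -0.13 log2 over all genes. Between p52ki GC and p52ki activated cells 4 of 10 were called, 2 higher and 2 lower, against 25.6% of all genes (6.34% higher and 19.3% lower), with medians of 0.80 and -0.41 log2. The change from activated to GC cells differed between genotypes for 1 of 10, a lower value, against 5.95% of all genes (0.977% higher and 4.97% lower). Between activated and naive cells no member was called by edgeR in p52ki (0.117% of all genes) or in WT (0.319%), and 0 of 10 had an unadjusted p under 0.05 in each. By limma voom 1 member passed in each, Mcl1 in p52ki and Bbc3 in WT, where it called 1228 genes in p52ki and 1618 in WT of the 15352 tested, and DESeq2 called 0 members. The difference of this change between genotypes was called for 0 of 10 members by edgeR (0% of all genes), with 0 of 10 at an unadjusted p under 0.05.

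**Figure D4:**
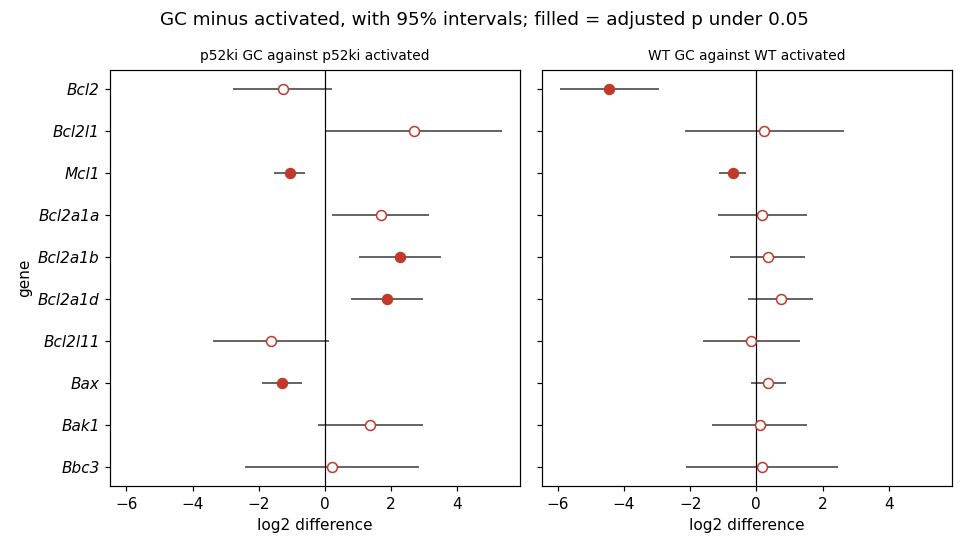
Log2 difference of GC against activated cells for each gene (rows) with its 95% interval, in p52ki (left) and WT (right), where filled points have an adjusted p under 0.05. Mcl1 is filled on the negative side in both, Bcl2 in WT at -4.45, and Bax, Bcl2a1b and Bcl2a1d in p52ki.

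Levels of different genes were compared per unit of transcript length, as TPM computed from merged exon lengths and scaled to a common sum. Mcl1 had rank 1 of the 10 in 5 of 6 groups, with 481 ± 92.9 TPM in p52ki naive and 485 ± 15.3 TPM in WT naive cells, 533 ± 86.2 TPM in p52ki activated and 422 ± 168 TPM in WT activated cells, and 286 ± 97.7 TPM in WT GC cells (SD, n = 3 each). In p52ki GC cells it had rank 3 at 206 ± 39.2 TPM (SD, n = 2), after Bcl2a1d at 253 ± 52.4 TPM and Bcl2a1b at 214 ± 64.4 TPM. These 3 neighbours did not differ beyond their spread. The summed Bcl2a1 copies had 499 ± 18 TPM in p52ki GC cells (SD, n = 2) and 256 ± 140 TPM in WT GC cells (SD, n = 3), against means of 141 to 161 TPM in the other 4 groups.

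Bcl2 had rank 5 in naive and activated cells of both genotypes, with means of 18.2 to 26.2 TPM. In GC cells it had 6.48 ± 2.23 TPM in p52ki (SD, n = 2), rank 7, and 0.921 ± 0.85 TPM in WT (SD, n = 3), rank 10. Bax had rank 3 in 3 of the 4 naive and activated groups and rank 4 in WT activated cells, with 24.5 ± 5.18 TPM in p52ki GC cells and 71.4 ± 22.8 TPM in WT GC cells. Bak1, the other effector, had means of 1.5 to 4.02 TPM and was below Bax in every group.

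Taken as shares of the pro-survival transcripts (Mcl1, Bcl2, Bcl2l1 and the summed Bcl2a1 copies, in TPM), Mcl1 made up 62.2% to 81.6% in p52ki and 58.8% to 77.8% in WT naive and activated libraries. Its share was 25.4% and 31.1% in p52ki GC cells, against 70.9%, 32.3% and 55.8% in WT GC cells. The Bcl2a1 share was 69.2% and 68.1% in p52ki GC libraries and 26.7%, 67.7% and 42.8% in WT GC libraries. WT GC replicate 3 thus had the make-up of the p52ki GC libraries in these genes, and the other WT GC libraries were nearer to naive and activated cells. Bcl2 itself was 1.15% and 0.653% of the sum in p52ki GC libraries. It was 0.197%, 0% and 0.347% in WT GC libraries, against 2% to 4.46% elsewhere. The 0% was in WT GC replicate 3, which had few detected genes and no Bcl2l1 count either. The part of its low detection in this value was not tested.

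**Figure D5:**
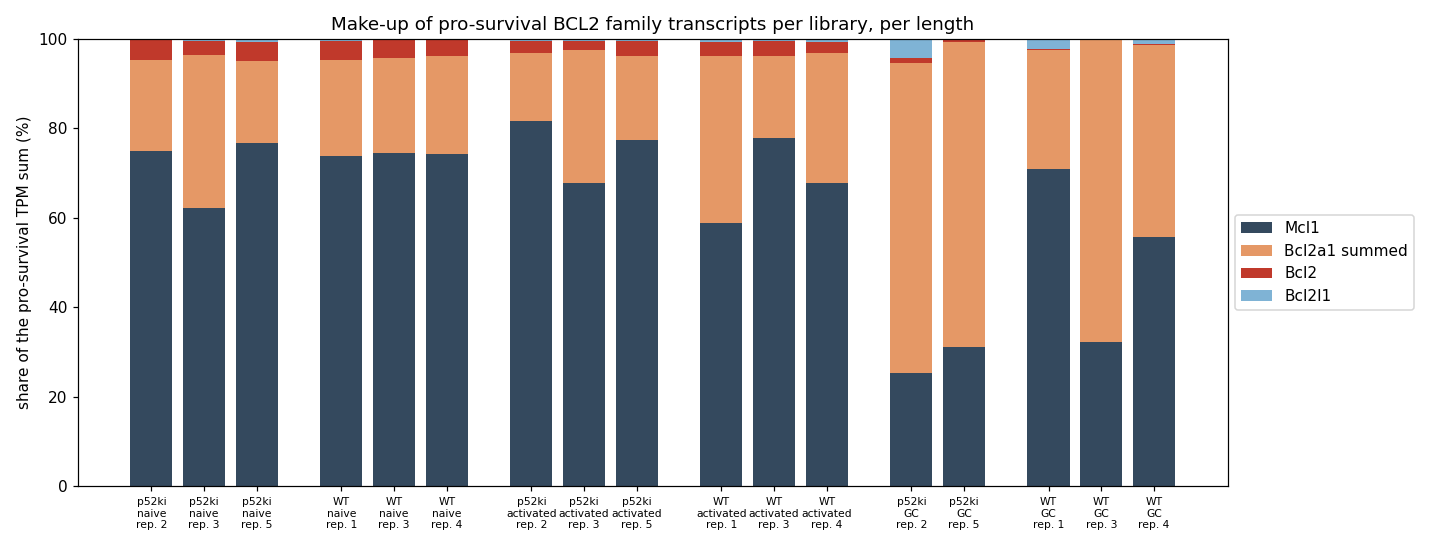
Share of the summed pro-survival TPM (y axis, percent) taken by Mcl1, the summed Bcl2a1 copies, Bcl2 and Bcl2l1 in each library (bars). Bcl2a1 takes 68.1% and 69.2% in p52ki GC libraries and 67.7% in WT GC replicate 3, and Mcl1 the larger share in all other libraries.

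The wider cell death pathway was counted from lists of named genes. Among other BCL2 proteins 5 of 9 were tested, and only Bid, a BH3-only protein that death receptors activate, was called lower in p52ki GC than in WT GC cells. It had 146 and 137 CPM in p52ki GC cells, against 220, 195 and 262 CPM in WT GC cells (-0.68 log2, adjusted p = 0.0329). The groups did not overlap. Of 12 genes of the mitochondrial death machinery counted, edgeR called none, and none had an unadjusted p under 0.05.

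Of 4 inhibitors of apoptosis 1 was lower, Birc6, with 28.6 and 32.2 CPM in p52ki GC cells and 88.4, 83.3 and 58.8 CPM in WT GC cells (-1.34 log2, adjusted p = 0.026). Of 6 tested genes of the death receptor pathway 1 was lower, Ripk1, the kinase that relays TNF receptor signals. Ripk1 had 0 and 4.76 CPM in p52ki GC cells, against 34.8, 34.6 and 34.3 CPM in WT GC cells (-3.78 log2, adjusted p = 0.00974). WT GC replicate 3 was at the level of the other WT libraries.

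Of 8 tested genes of p53 and its targets 2 were lower, the cell cycle inhibitor Cdkn1a and the stress gene Sesn2. Neither had a count in a p52ki GC library. Sesn2 had 9.23, 0 and 7.28 CPM in WT GC cells, and Cdkn1a had 1.03, 0 and 0.87 CPM. Their WT GC means were 18.8-fold (Sesn2) and 2.15-fold (Cdkn1a) above a floor of 3 counts over the p52ki GC group. That floor covers counting error only. WT GC replicate 3 was at 0 for both. Of 5 FOXO and MCL1 turnover regulators 1 was higher, Foxo3, a transcription factor that can raise BIM and PUMA. Foxo3 had 14.1 and 11 CPM in p52ki GC cells, against 2.31, 0 and 2.28 CPM in WT GC cells (2.97 log2, adjusted p = 0.0297). The lower calls stand beside 12.2% of all genes called lower in this comparison and beside the low gene detection of both p52ki GC libraries, whose part was not tested. With limma voom none of these 6 genes was called (adjusted p = 0.338 to 0.609). By edgeR with GC libraries alone, Ripk1 (-3.76 log2), Bid, Birc6 and Sesn2 were not called (adjusted p = 0.631 each), nor was Foxo3 (0.652). Bid and Cdkn1a were lost with immunoglobulin genes removed (0.0562 and 0.0514) and with no filter (0.228 and 0.134). In the edgeR fits over all groups, only Ripk1 of the 6 stayed called without each GC library in turn. Without p52ki GC replicate 2 the other 5 lost their calls (adjusted p = 0.0583 for Foxo3 to 0.115 for Cdkn1a), and without p52ki GC replicate 5 Bid, Cdkn1a and Sesn2 did (0.0707 to 0.122). Without WT GC replicate 1 Bid, Birc6, Cdkn1a, Sesn2 and Foxo3 were lost (0.0522 to 0.0977), and without WT GC replicate 4 Bid, Cdkn1a, Sesn2 and Foxo3 (0.0518 to 0.0964).

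From activated to GC cells, the death receptor gene Fas, itself a GC marker, was higher in both genotypes. It had 141 and 299 CPM in p52ki GC cells against 14.3, 22.5 and 15.2 CPM in p52ki activated cells (3.67 log2, adjusted p = 7.36e-05). It had 237, 145 and 316 CPM in WT GC cells against 37.1, 16.8 and 25.5 CPM in WT activated cells (3.14 log2, adjusted p = 0.000114). The GC regulator gene Bcl6, whose product is known to repress BCL2 in human B cells, was higher by 2.16 log2 in p52ki (adjusted p = 0.000824) and by 2.59 log2 in WT (adjusted p = 0.000149), and the genotypes did not differ by a call in GC cells (-0.28 log2, adjusted p = 0.609). Birc3, an NF-kB target that inhibits apoptosis, was lower by 1.22 log2 in p52ki (-1.22, adjusted p = 0.0484) and by 1.31 log2 in WT (-1.31, adjusted p = 0.0295). The p52ki call for Birc3 was lost without any 1 of its 5 libraries (adjusted p = 0.0629 to 0.177), with limma voom (0.0983) and with immunoglobulin genes removed (0.0545). The WT call was lost with only the groups compared (adjusted p = 0.209) and without WT activated replicate 3 (0.102) or 4 (0.0649).

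Other calls at this step were made in 1 genotype, and the difference between genotypes was called only for Ripk1 (-3.72 log2, adjusted p = 0.0429) among the listed death pathway genes. In p52ki GC cells the executioner gene Casp6 was 1.20 log2 higher than in p52ki activated cells (adjusted p = 0.0263) and Cycs, which encodes cytochrome c, 0.97 log2 higher (adjusted p = 0.0307). Birc6 was at -1.22 log2 (adjusted p = 0.0268) and Ripk1 at -3.80 log2 (adjusted p = 0.00586). Bcl2l2, the BCL-W gene, had no count in p52ki GC cells. Its mean in p52ki activated cells was 4.32-fold above a floor of 0.293 CPM (3 counts over the p52ki GC group). However, the p52ki activated libraries ran from 0.117 to 3.22 CPM, the lowest of them below that floor. The p52ki activated means of Cdkn1a and Sesn2 were 9.93-fold and 18.7-fold above the same floor, which covers counting error only. With limma voom none of these 7 genes was called (adjusted p = 0.109 to 0.647), and Casp6, Birc6 and Ripk1 were not called with only the groups compared (0.136 to 0.19). By edgeR without 1 of the 5 libraries, Sesn2, Cycs, Birc6, Bcl2l2 and Casp6 each lost the call in 3 or 4 of the 5 fits, and Casp6 was at 0.40 log2 without p52ki GC replicate 5 (adjusted p = 0.391). In WT GC cells Fbxw7, part of a ligase that marks MCL1 for breakdown, was 1.38 log2 higher than in WT activated cells (adjusted p = 0.00588), a call lost with no filter (0.0655) and with only the groups compared (0.0562). Between activated and naive cells the only listed death pathway gene called by edgeR was Bid, 0.88 log2 higher in WT activated cells (adjusted p = 0.0475). The Bid call was lost without any 1 of the 6 libraries (adjusted p = 0.0601 to 0.298), with no filter (0.29) and with immunoglobulin genes removed (0.0583). In p52ki, Bid was higher in activated cells by DESeq2 (0.61 log2, adjusted p = 0.00159) and limma voom (0.58 log2, 0.00246), though not called by edgeR. Of all genes, limma voom called 1228 in p52ki and 1618 in WT. Among them were Cdkn1a in p52ki (2.02 log2, adjusted p = 0.0026), and Fas (0.85 log2, 0.0359) and Birc3 (-0.43 log2, 0.0243) in WT.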

How the data were processed

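RNA of spleen B cells was amplified from very low input by a SMART-Seq protocol without named molecular identifiers, per the labels' protocols, so floors allow for counting error alone. The deposited file holds raw counts per gene. The submitters' processing notes name featureCounts (Subread 1.6.2), SAMtools 1.8 and HISAT2 2.1.0, with the build GRCm38. The strand setting is not stated in them; all 55536 identifiers matched GENCODE M21.

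Genes were kept by filterByExpr (15352), scaled by TMM and tested in R 4.3.3 with edgeR 4.0.16 (glmQLFit with robust estimation, glmQLFTest), with 1 coefficient per group over 17 libraries. Adjusted p-values are Benjamini-Hochberg over all genes tested in a contrast, called under 0.05. Replicate libraries differed beyond sampling noise (chi-square per degree of freedom 7.88 to 116), so none was merged. The GC libraries vary more than the others, so the shared spread may be too small for them. Alternatives used RLE scaling, no filter, DESeq2 1.42.0, limma 3.58.1 voom with quality weights, only the groups compared, summed Bcl2a1 copies, immunoglobulin genes removed, WT GC replicate 3 alone, a replicate block and leaving out each library. CPM and TPM were computed here, TPM from merged exon lengths. Sequences came from RefSeq promoter tables and GENCODE transcripts and were handled with Biopython 1.88. The 10 members and up to 4 called genes with the smallest p from each death pathway list are named, and some genes of the lists are not reported here; members and lists were chosen with earlier results of these data known.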

Additional observations from a re-analysis of the deposited data

Results flagged for a closer look

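The change of Bax from activated to GC cells differed between genotypes by a direct test of the difference, at -1.66 log2 for p52ki minus WT (edgeR's quasi-likelihood test, adjusted p = 0.013). It was lower in GC than in activated cells in both p52ki GC libraries, against 3 of 3 WT GC libraries above all WT activated libraries. The Bax call was lost with no filter (adjusted p = 0.127), with limma voom (0.297), with only the groups compared (0.173) and with the replicate block (0.0629). Ripk1 met the same test at -3.72 log2 (edgeR, adjusted p = 0.0429), with 0 and 4.76 CPM in p52ki GC cells and 34.3 to 34.8 CPM in WT GC cells. Without 1 library its adjusted p ran up to 0.0931, and it was not called when any 1 of the 6 activated libraries, or WT GC replicate 1 or 4, was left out. Nor was Ripk1 called with limma voom (adjusted p = 0.37), with only the groups compared (0.226) or with the replicate block (0.12).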

How the results depend on the processing

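Across 9 called results of the members, 107 of 128 alternative values kept direction and call, 21 kept direction only and 0 were reversed. Of 1225 alternative values of the 81 uncalled results, 30 passed the threshold and 82 had another sign while uncalled.

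The number of members called moved as follows. For p52ki GC against WT GC (2) it was 0 with limma voom, 0 with only the groups compared, 4 with WT GC replicate 3 alone and 2 to 4 with 1 library left out, the 4 without WT GC replicate 3. For WT GC against WT activated cells (2) it was 0 with only the groups compared, 5 with WT GC replicate 3 alone and 1 to 2 with 1 library left out. There, Bcl2l1 (-9.25 log2), Bak1 (-2.44 log2) and Sesn2 (-8.26 log2) were reversed with WT GC replicate 3 alone, where Bcl2l1 and Sesn2 had no count. For p52ki GC against p52ki activated cells (4) it was 1 with limma voom and 3 to 6 with 1 library left out, the 6 without p52ki GC replicate 5. For the difference of these changes (1) it was 2 with RLE, 2 with DESeq2, 2 with immunoglobulin genes removed, 4 with WT GC replicate 3 alone, 0 with no filter, 0 with limma voom, 0 with only the groups compared and 1 to 4 with 1 library left out. For activated against naive cells (0) limma voom called 1 in WT and 1 in p52ki.

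No label pairs the libraries by number, and same-numbered libraries did not all deviate together: their deviations correlated at -0.229 to 0.281 (4 of 16 pairs over 0.1), against -0.23 to 0.317 for others (3 of 32). Between naive and activated cells all 6 same-numbered pairs were positive (0.079 to 0.281, 4 over 0.1) and 10 of 12 others negative, a hint from the data that numbers may be shared there. Deviations within a group sum to 0, so the negative values of the others are not separate support. With the replicate block, members called were 1 for WT GC against WT activated cells and 0 for the difference of the stage changes, and with the block as a random effect (correlation -0.042) 4 for p52ki GC against WT GC cells. The block left 17 genes called for activated against naive cells in WT and 2 in p52ki, with 0 members in each. It also ended the calls of Bid (adjusted p = 0.135) in WT activated against naive cells, of Birc3 (0.0757) in WT GC cells, and of Birc3 (0.114), Casp6 (0.0732), Sesn2 (0.0887) and Bcl2l2 (0.0908) in p52ki GC against activated cells.

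Over all genes, p52ki GC against WT GC cells gave 2450 calls by edgeR, 3924 by DESeq2, 15 by limma voom, 0 with only the groups compared and 4397 without WT GC replicate 3. WT GC against WT activated cells gave 2081, with 3339 by DESeq2, 5023 by limma voom and 571 with only the groups compared. p52ki GC against p52ki activated cells gave 3930, with 186 by limma voom and 2076 with only the groups compared. In naive cells DESeq2 called 5 and limma voom 13 genes between genotypes, against 0. Removing immunoglobulin genes moved the median of all genes by 0.11 log2 in p52ki GC against p52ki activated cells and changed no member call there. The cause of these shifts was not tested.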

Other observations

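The 9088 genes compared averaged 5 CPM or more. They left out predicted genes, RIKEN clones, immunoglobulin segments, genes named by accession and genes of the mitochondrial genome. Patterns among the most like that of Bcl2 across the 17 libraries were those of Cnn3 (r = 0.992), Serpini1 (0.983), Ifi206 (0.983) and Nrros (0.98), as a description over libraries that share groups. Cnn3, which encodes an actin-binding calponin, averaged 78.9 ± 0.525 CPM in p52ki GC cells (SD, n = 2) and 8.63 ± 7.75 CPM in WT GC cells (SD, n = 3). Serpini1, which encodes a protease inhibitor, averaged 45.2 ± 14.2 CPM in p52ki GC cells (SD, n = 2) and 8.4 ± 7.9 CPM in WT GC cells (SD, n = 3). For Bcl2l11 the most alike were Cdc23 (0.983), Tdg (0.976), Prmt7 (0.975), Ints12 (0.971) and Pacsin2 (0.971). Like Bcl2l11 (0.484 and 16.6 CPM), each was split between the p52ki GC libraries, which had few detected genes. The lower and higher values were 0 and 46.9 CPM for Cdc23, 0 and 12.8 for Tdg and 3.39 and 41 for Prmt7. They were 0 and 18.4 CPM for Ints12 and 0.969 and 38.4 for Pacsin2. The part of this split in the correlations was not tested.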
